A study of Mus musculus with 12 samples.

Results

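Oxytocin (Oxt), vasopressin (Avp) and the hypothalamic hormones that govern the anterior pituitary are described here across 4 groups of 3 arrays. Probes were chosen by gene name alone. Of the 8 genes listed, 7 had a probe, 1 each, among 13840 genes with a single-symbol probe: Oxt, Avp, Trh, Crh, Sst, Ghrh and Vip. Gnrh1, the gonadotropin-releasing hormone gene, had no probe under that name and was not analysed here. The groups were hypothalamus of male mice homozygous for the congenic strain B6.CAST-17 (called short congenics in the titles), hypothalamus of male wild type B6 mice, congenic skeletal muscle and wild type skeletal muscle. The congenic strain is B6 except for chromosome 17 material of the CAST strain; none of the 8 genes lies on that chromosome (0 of 8), the 7 with a probe being on chromosomes 2 (Oxt, Avp, Ghrh), 3 (Crh), 6 (Trh), 10 (Vip) and 16 (Sst). Ages are not given in the labels. Nor do the labels say which mouse gave which array beyond 3 mice per strain as biological replicates, so p-values measure the spread between these arrays.

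Oxytocin and vasopressin are made in large neurons of the paraventricular and supraoptic nuclei, whose axons release them from the posterior pituitary into the blood. The releasing factors come from smaller neurons that end at the median eminence, from where portal vessels carry them to the anterior pituitary. Each hormone starts as a precursor that is cut by prohormone convertases inside secretory granules, and each acts on G protein-coupled receptors.

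The regulatory sequence just upstream of Oxt and Avp is shown because these neighbours on chromosome 2 had the most similar array-by-array profiles among the hormones measured. Windows run from 250 bases before to 50 bases after the RefSeq start (GRCm38.p6). Capitals mark TGACC or its reverse complement GGTCA, the half-site of nuclear hormone receptors.
Oxt, chr2:130575919-130576218, + strand: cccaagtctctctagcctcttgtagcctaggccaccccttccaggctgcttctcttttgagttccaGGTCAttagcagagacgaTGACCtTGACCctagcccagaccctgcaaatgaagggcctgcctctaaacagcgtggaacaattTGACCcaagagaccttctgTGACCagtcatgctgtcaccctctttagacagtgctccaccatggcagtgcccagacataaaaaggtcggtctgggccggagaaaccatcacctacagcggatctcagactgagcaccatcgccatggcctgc
Avp, chr2:130582539-130582838, - strand: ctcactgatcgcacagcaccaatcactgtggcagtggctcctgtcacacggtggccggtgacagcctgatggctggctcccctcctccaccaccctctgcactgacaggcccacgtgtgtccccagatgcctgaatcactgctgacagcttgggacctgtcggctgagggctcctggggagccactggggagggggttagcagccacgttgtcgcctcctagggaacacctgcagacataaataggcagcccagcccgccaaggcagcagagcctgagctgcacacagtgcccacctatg

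The Oxt window held 5 of these half-sites on the 2 strands together and the Avp window 0. Those of Trh and Vip held 1 each, those of Ghrh 1 and 2, and that of Sst 0. Of 32851 such windows of RefSeq genes, 40.5% held at least 1 and 0.0944% at least 5. A stretch of 80 bases each is shown for Sst and Vip, genes known to respond to cyclic AMP, with TGACG or its reverse complement CGTCA in capitals; these letters form the half-site of the cyclic AMP response element.
Sst, chr16:23890845-23890924, - strand: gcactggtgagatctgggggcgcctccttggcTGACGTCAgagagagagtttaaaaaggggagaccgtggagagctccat
Vip, chr10:5639108-5639187, + strand: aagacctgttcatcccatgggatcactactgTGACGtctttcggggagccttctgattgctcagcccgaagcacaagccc

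In Sst the half-sites of both strands overlap in the full palindrome TGACGTCA, which begins 48 bases before the RefSeq start and was found in 1.79% of the 32851 windows. Vip carried 1 half-site, 79 bases before its start, and no full palindrome. The half-site was not particular to Sst and Vip. Trh held 1 and the windows of Ghrh held 1 and 2, while those of Oxt and Avp held 0. Of all windows, 20.8% held at least 1 half-site. Windows were matched for 6 of the 7 hormones measured. A match of letters describes the sequence and does not show that a factor binds there.

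The arrays were 1-colour and chemiluminescent, with 33012 probes, and values are deposited log2 intensities. The base of the log was inferred from the range of 5.35 to 21.1. Each tissue's arrays shared 1 distribution, with a median of 8.98 in hypothalamus and 9.12 in muscle, so the tissues appear to have been normalized separately, and levels set side by side across them are descriptions. Signal over background is unknown. Skeletal muscle markers followed the titles: the median of 8 was 8.79 to 9.49 on hypothalamus arrays and 20.02 to 20.20 on muscle arrays. Wild type hypothalamus array 1 stood apart, with Spearman correlations across probes of 0.420 to 0.461 with the other 5, which gave 0.775 to 0.853 among themselves. Strain results in hypothalamus are therefore given with and without it.

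The hormones were not called different between the strains in hypothalamus, with or without that array. By limma over all 33012 probes, 0 of the 7 passed an adjusted p of 0.05 on the 6 arrays (percent of all probes called: 0.0), and 0 of the 7 on the 5 arrays (again 0.0 percent). At an unadjusted p under 0.05 the count was also 0 of 7 in both fits, against 658 and 1761 of all probes. With arrays weighted by limma, 3 of 7 had an unadjusted p under 0.05, beside 10.1% of all probes (3328): Oxt (1.28), Avp (1.37) and Trh (-1.03), with limma adjusted p-values of 0.410, 0.410 and 0.459. These weights were estimated from the same values and not from a separate measure of quality. The lowest were 0.10 for wild type array 1 and 0.72 for congenic array 3, and the highest was 3.48 for wild type array 2. Adjusted p-values of the 7 in limma were 0.936 to 0.942 on 6 arrays and 0.900 to 0.984 on 5. Over all 6 arrays the congenic and wild type values of each hormone overlapped (0 of 7 separate, where 9.16% of all probes were). Without wild type array 1 only Oxt separated (1 of 7, against 22.6% of all probes).

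Oxt, which drives milk ejection, uterine contraction and social behaviour, was among the brightest probes of every hypothalamus array, at percentile 98.8 to 99.8. It read 18.76, 19.22 and 17.96 on congenic arrays 1, 2 and 3 and 18.69, 17.43 and 17.48 on wild type arrays 1, 2 and 3. The highest values were those of congenic arrays 1 and 2 and wild type array 1, so the strains overlapped. Means were 18.65 ± 0.64 in congenic and 17.87 ± 0.71 in wild type hypothalamus (SD, n = 3 each), a difference of 0.78 (SE 0.60; limma adjusted p = 0.936). Without wild type array 1 the wild type mean was 17.46 ± 0.03 (n = 2), and the difference was 1.19 (95% interval -0.17 to 2.54; 2.28-fold on base 2; limma adjusted p = 0.900). All 3 congenic arrays then lay above both wild type arrays, by a margin that the interval does not separate from 0.

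Avp, the antidiuretic hormone, followed the same arrays. It read 17.22, 17.95 and 15.72 on congenic arrays 1 to 3 and 16.87, 15.75 and 15.84 on wild type arrays 1 to 3. Congenic array 3 was as low as wild type arrays 2 and 3, and the groups overlapped with or without wild type array 1. Avp averaged 16.96 ± 1.14 in congenic and 16.15 ± 0.62 in wild type hypothalamus (SD, n = 3 each), a difference of 0.81 (SE 0.72; limma adjusted p = 0.936). Without wild type array 1 it was 1.17 (SE 0.63, 95% interval -0.28 to 2.62; limma adjusted p = 0.900). The 2 genes encode similar precursors with a shared carrier domain, neurophysin, and the position of their probes is not given in the sources used here, so whether each probe tells them apart was not tested.

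Trh, the thyrotropin-releasing hormone that starts the thyroid axis, ran the other way over the same arrays. It read 14.79, 15.06 and 16.34 on congenic arrays 1 to 3 and 14.65, 16.01 and 16.66 on wild type arrays 1 to 3. The 3 arrays with the highest Oxt and Avp values (congenic 1 and 2, wild type 1) were the 3 with the lowest Trh values. The strain difference was -0.37 (SE 0.74; limma adjusted p = 0.942) and, without wild type array 1, -0.93 (95% interval -2.12 to 0.25; limma adjusted p = 0.900).

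**Figure D1:**
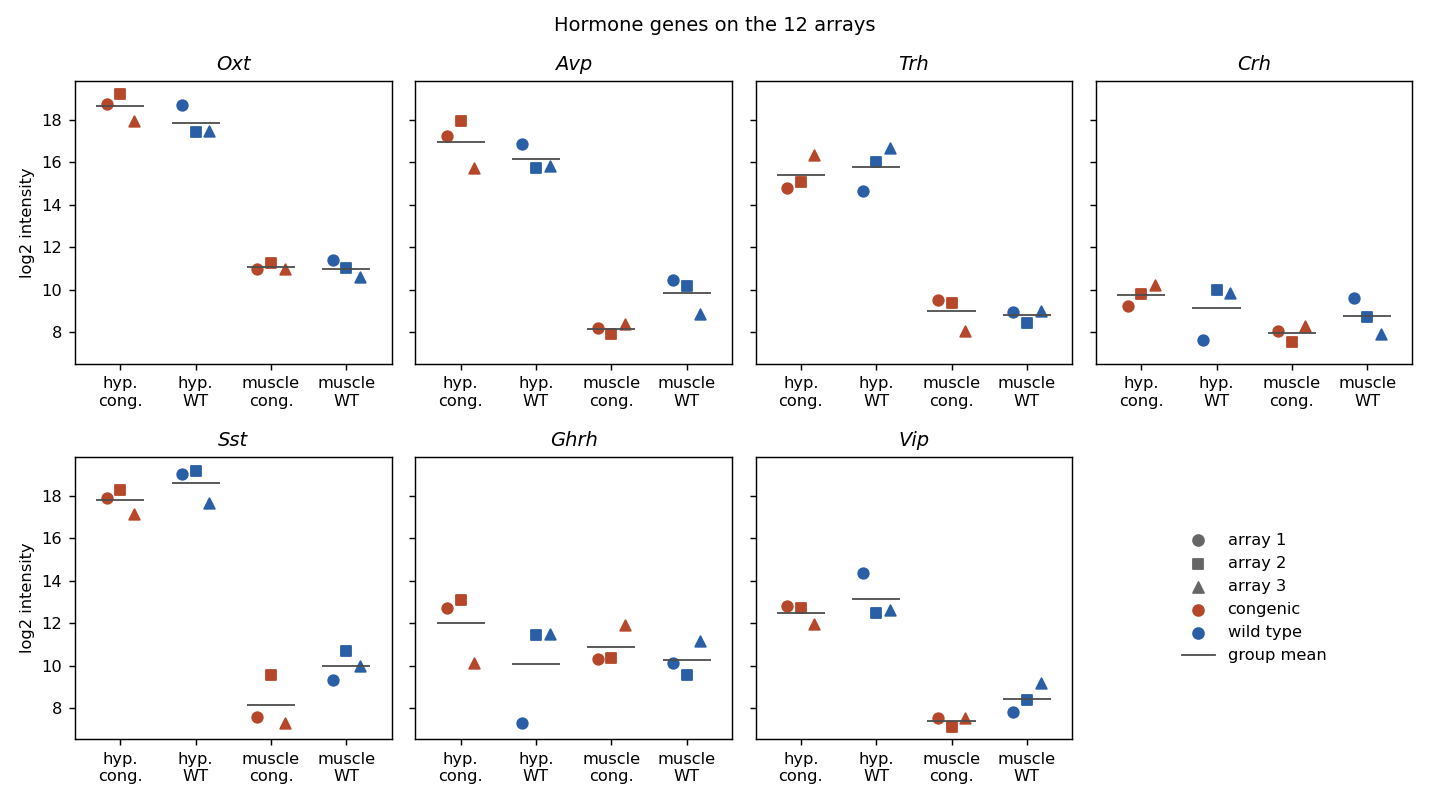
Log2 intensity of the 7 hormone genes (y axis) in hypothalamus (hyp.) and muscle of congenic (cong., red) and wild type (WT, blue) mice; each point is 1 array, its shape gives the array number and the line is the mean of 3 arrays. Oxt, Avp, Trh, Sst and Vip lie above muscle on all 6 hypothalamus arrays, and Ghrh on wild type array 1 (7.28) lies below every muscle value.

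Sst encodes somatostatin, which inhibits growth hormone release. It read 17.87, 18.28 and 17.15 on congenic arrays 1 to 3 and 19.00, 19.16 and 17.63 on wild type arrays 1 to 3. Array 3 was the lowest of each strain, and wild type arrays 1 and 2 lay above all congenic arrays. The difference was -0.83 (SE 0.62, 95% interval -2.24 to 0.58; limma adjusted p = 0.936), and -0.63 without wild type array 1 (limma adjusted p = 0.931).

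Ghrh, the growth hormone-releasing hormone made in the arcuate nucleus, varied most between arrays. It read 12.72, 13.09 and 10.14 on congenic arrays 1 to 3 and 7.28, 11.45 and 11.50 on wild type arrays 1 to 3. Wild type array 1 was lowest, at percentile 4.72 of its own probes. The strain difference was 1.91 (SE 1.29) with it and 0.51 (SE 0.78) without it, with limma adjusted p-values of 0.936 and 0.950.

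Crh, the corticotropin-releasing hormone of the stress axis, was dim. It read 9.26, 9.79 and 10.22 on congenic arrays 1 to 3 and 7.62, 9.99 and 9.85 on wild type arrays 1 to 3. Leaving out wild type array 1, again the lowest, turned the sign: the difference was 0.60 (SE 0.79) with it and -0.17 (SE 0.45, 95% interval -1.22 to 0.88) without it, with limma adjusted p-values of 0.936 and 0.968.

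Vip, vasoactive intestinal peptide, marks neurons of the suprachiasmatic clock nucleus and also acts as a prolactin-releasing factor. It read 12.80, 12.70 and 11.94 on congenic arrays 1 to 3 and 14.36, 12.47 and 12.63 on wild type arrays 1 to 3. Here wild type array 1 was the highest, and the other 5 arrays spanned 0.86. The strain difference was -0.67 (SE 0.72; limma adjusted p = 0.936) and, without wild type array 1, -0.07 (95% interval -0.85 to 0.71; limma adjusted p = 0.984), the narrowest of the 7 intervals.

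**Figure D2:**
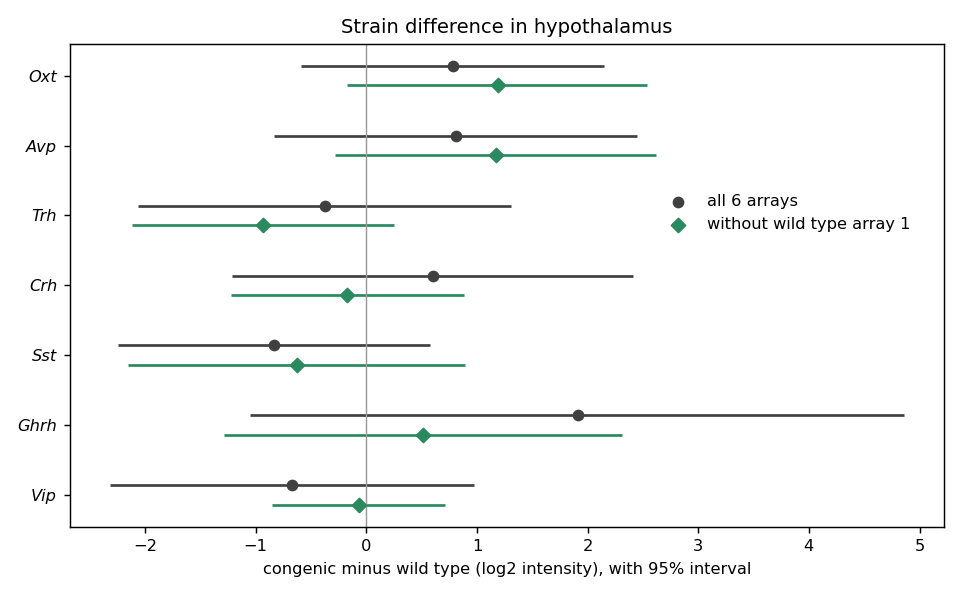
Difference between congenic and wild type hypothalamus (x axis, log2 intensity) for the 7 hormone genes, with 95% intervals from limma; circles use all 6 arrays and diamonds leave out wild type array 1. Every interval includes 0, and Ghrh moves from 1.91 to 0.51 and Crh from 0.60 to -0.17 when that array is left out.

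The hormones did not stand alike on wild type array 1. Its value minus the mean of the other 5 hypothalamus arrays was 1.85 for Vip, 0.98 for Sst, 0.51 for Oxt and 0.37 for Avp, but -1.12 for Trh, -2.21 for Crh and -4.50 for Ghrh. One hormone of 7 (14.3%) was thus more than 3 log2 units lower, beside 9.20% of all probes. Oxt, Avp, Trh and Sst averaged above 13 elsewhere, and 0 of these 4 were so low, beside 33.4% of the 4165 probes that bright. Of the 15 processing and granule genes 4 were, as were 4 of 14 related peptides and enzymes; 3 genes of the lists are shown, chosen after their values were seen. Resp18, a granule protein of neuroendocrine cells, read 9.20 on wild type array 1 and 19.64 on both other wild type arrays, with 18.87 to 19.45 on the congenic arrays. Hcrt, the orexin precursor, read 9.06 there and 17.58 and 19.10 on wild type arrays 2 and 3, while Gal, the galanin gene, read 16.04 there and 14.08 and 13.82 on wild type arrays 2 and 3. The part of this array's quality in each value was not tested.

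The order of the arrays cut across the strains. Congenic arrays 1 and 2 and wild type array 1 were the 3 highest for Oxt, Avp and Vip (3 of 7 hormones) and the 3 lowest for Trh and Crh (2 of 7). Over all probes these arrays were the 3 highest for 10.1% and the 3 lowest for 10.7%. The order was noticed in these values, so the counts are a description. Of the 14 related peptides and enzymes, 3 had these arrays highest (Kiss1, Gal and Cck) and 3 had them lowest (Crhbp, Trhde and Prepl). Of the 15 processing and granule genes 0 had them highest and 5 lowest. Of the 8 anterior pituitary markers measured, Cga and Tshb, the subunits of thyroid-stimulating hormone (Cga also of the gonadotropins), had them highest and 0 had them lowest. Tshb read 12.35, 10.30 and 7.47 on congenic arrays 1 to 3 and 12.92, 8.33 and 9.48 on wild type arrays 1 to 3. Members of the same list stood otherwise: Pomc, the precursor of corticotropin, was highest on congenic array 1 (18.18) and lowest on wild type array 1 (8.68).

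Marker lists of the cell types that the tissue could hold did not all share 1 order over the arrays. By summed intensity, congenic arrays 1 and 2 and wild type array 1 were lowest for the neuron, astrocyte and neighbouring brain lists. They were highest for the anterior pituitary, ependyma and skeletal muscle lists. Sums of the oligodendrocyte, microglia, blood and other peptide neuron lists followed neither order. A sum follows the brightest genes of its list. The anterior pituitary median was also highest on these arrays, but other medians were not. For ependyma the medians were 11.40, 10.90 and 10.36 (congenic 1 to 3) and 9.13, 11.17 and 11.08 (wild type 1 to 3). For skeletal muscle they were 8.79, 9.40 and 8.86 (congenic 1 to 3) and 9.03, 9.25 and 9.49 (wild type 1 to 3). Of 12 anterior pituitary markers 8 were measured, and their summed intensity, as log2, ran between 13.87 and 19.12 on congenic hypothalamus arrays and between 14.16 and 15.28 on wild type ones. The growth hormone gene Gh read 17.46 on congenic array 1 and 8.04 and 8.86 on congenic arrays 2 and 3, against 7.57 to 8.64 on the wild type arrays; muscle read 7.68 to 9.69. Of 10 neuron markers 9 were measured, with medians of 12.94, 12.96 and 12.08 on congenic arrays 1 to 3 and 10.49, 12.38 and 11.54 on wild type arrays 1 to 3. Their summed intensity, as log2, was 18.36 to 18.95 on congenic arrays 1 and 2 and wild type array 1. On the other hypothalamus arrays it was 19.98 to 20.14. Syt1, a synaptic vesicle protein, had congenic arrays 1 and 2 and wild type array 1 highest, and Eno2 and Tubb3, a neuronal enolase and a tubulin, had them lowest. The neuron medians equal the Syt1 values on every hypothalamus array but wild type array 1. Syt1 read 11.54 to 13.57 in hypothalamus and 11.85 to 13.37 in muscle, so it did not separate the tissues. Neither did Snap25, at 7.33 to 8.26 in hypothalamus and 7.25 to 8.28 in muscle. Of 11 markers of neighbouring thalamus, cortex and striatum 5 were measured, with medians of 10.03, 10.58 and 10.82 on the congenic arrays and 10.06, 10.32 and 10.56 on the wild type arrays. Their summed intensity was 13.99 to 15.97 on congenic arrays 1 and 2 and wild type array 1, and 16.67 to 17.20 on the others. Calb2 and Drd1 (2 of 5) had those arrays lowest, beside 10.7% of all probes, and 0 had them highest. Calb2 read 7.92 on wild type array 1 and 15.72 to 17.10 on the others, where the list's sum was 15.88 to 17.20. Drd1 spanned only 9.95 to 10.32, and Tbr1 was highest on wild type array 1 (12.27). The astrocyte sum was likewise close to Aldoc alone outside wild type array 1, such as 17.22 beside 17.09 on congenic array 2. Astrocyte medians were 11.32, 11.75 and 11.89 (congenic 1 to 3) and 10.13, 10.99 and 11.14 (wild type 1 to 3).

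Oligodendrocyte markers, 8 measured of 10, had medians of 9.92, 11.48 and 12.79 on congenic arrays 1 to 3 and 8.09, 10.54 and 11.09 on wild type arrays 1 to 3. Their strain difference was positive for 8 of 8 over 6 arrays, with a median of 1.22, beside 48.8% of all 13840 genes. Without wild type array 1 it was positive for 6 of 8, with a median of 0.68, beside 44.5% of all genes. In either fit 0 passed. On wild type array 1, 0 of the 8 markers were higher than their mean on the other 5 hypothalamus arrays. Microglia, blood and other peptide neuron markers had 0 genes with congenic arrays 1 and 2 and wild type array 1 highest and 0 with them lowest. These arrays were lowest for 2 of 8 oligodendrocyte markers (Mog and Cldn11) and 2 of 5 astrocyte and tanycyte markers (Aldh1l1 and Aldoc). They were highest for 1 of 6 ependyma and choroid plexus markers (Dynlrb2) and 2 of 8 skeletal muscle markers (Acta1 and Pvalb). Over all probes they were highest for 10.1% and lowest for 10.7%. The part of these cell types in the hormone values was not tested. In bulk tissue fewer cells of a type and less RNA per cell cannot be told apart.

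**Figure D3:**
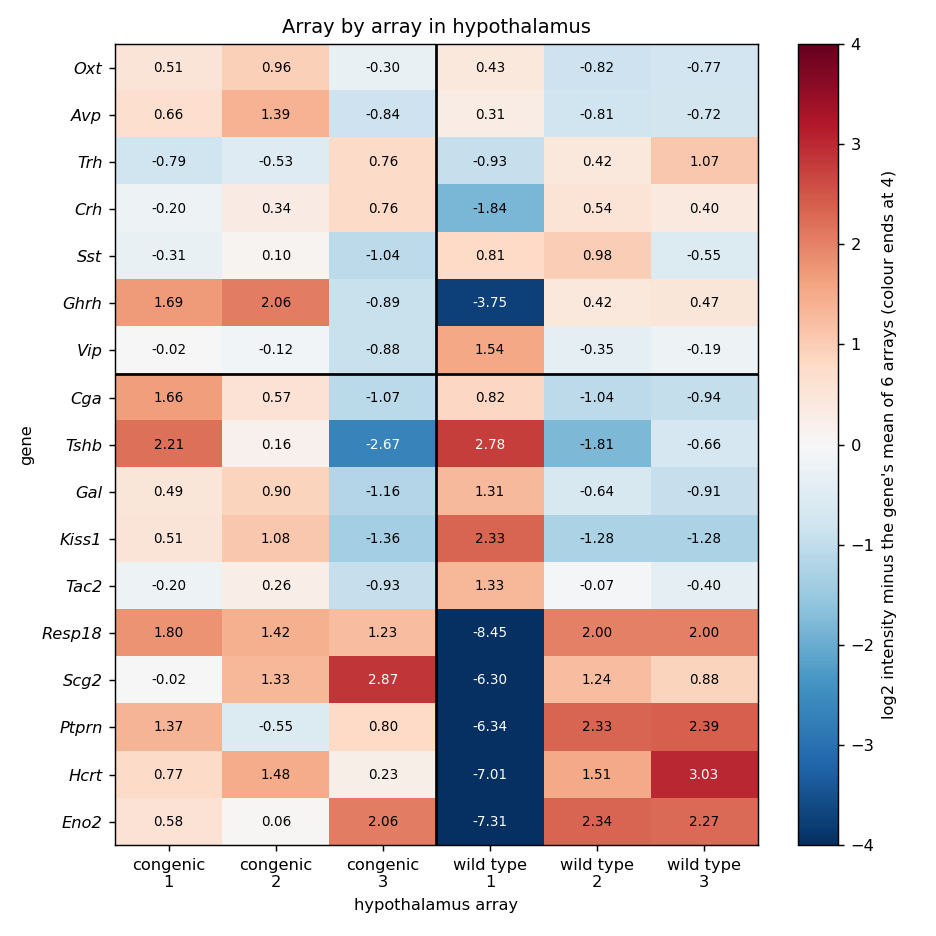
Log2 intensity minus the gene's mean over the 6 hypothalamus arrays, for the 7 hormone genes (above the line) and 10 other genes of fixed lists, chosen after their values were seen (below it); columns are arrays, congenic left and wild type right, and colour ends at 4 in each direction. Oxt and Avp are above their means on congenic arrays 1 and 2 and wild type array 1, where Trh is below its mean, and Resp18, Scg2, Ptprn, Hcrt and Eno2 are far below theirs on wild type array 1.

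Likeness between profiles was measured as the root mean square difference between log2 values centred on each gene's mean of the 6 hypothalamus arrays. Avp differed from Oxt by 0.293, and ranked 18 among 13833 other genes in likeness to Oxt, and Oxt ranked 11 in likeness to Avp; without wild type array 1 these ranks were 124 and 74. The 3 genes closest to Oxt were Cog6, Slc11a1 and Pax8 (0.208 to 0.228), and those closest to Avp were Gnl3, Pp2d1 and H4c4 (0.156 to 0.224). For Trh they were Tmem214, Nudt16l1 and Tpmt (0.141 to 0.183), and for Sst Fsd2, Olfr1298 and Tktl2 (0.171 to 0.195). For Crh they were Stac3, Cav2 and Timm29, for Ghrh Smim11, Lsm5 and Meig1, and for Vip Mpo, B3gnt9 and Armc5. None of these 21 genes was named again when wild type array 1 was left out (0 of 21 shared), when those closest to Oxt were Nupr1l, Adam3 and Rtf2 and those closest to Avp were Pelp1, Phlda1 and Zc3h6. With so few arrays a close profile is easily met among many genes.

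In skeletal muscle the hormones lay between 7.13 and 11.90, and 0 of 7 passed the strain test. The lowest hypothalamus value exceeded the highest muscle value for 5 of 7 hormones, by 6.48 for Sst, 6.05 for Oxt, 5.24 for Avp, 5.11 for Trh and 2.78 for Vip; the same held for 6.91% of all probes. Crh and Ghrh overlapped. Crh read 7.53 to 9.63 in muscle against 9.26 to 10.22 on the 5 hypothalamus arrays other than wild type 1, and Ghrh 9.56 to 11.90 in muscle, where congenic hypothalamus array 3 gave 10.14. Only congenic hypothalamus arrays 1 and 2 had Ghrh above every muscle array. Oxt in muscle was 10.60 to 11.39, at percentile 68.3 to 74.9, and the source of that signal was not tested.

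By limma 0 of 7 hormones were called between the strains in muscle, where 0.0182% of all probes did (6 of 33012). At an unadjusted p under 0.05 there were 3 of 7, Avp, Sst and Vip, beside 1653 of all probes. Avp read 8.19, 7.91 and 8.41 in congenic and 10.48, 10.18 and 8.87 in wild type muscle. The difference was -1.67 (SE 0.51; limma adjusted p = 0.835). Sst read 7.57, 9.57 and 7.32 in congenic against 9.30 and 10.67 on wild type muscle arrays 1 and 2, with wild type array 3 between these. The difference was -1.84 (SE 0.65; limma adjusted p = 0.835). Vip read 7.52, 7.13 and 7.53 in congenic and 7.82, 8.37 and 9.16 in wild type muscle. The difference was -1.06 (SE 0.39; limma adjusted p = 0.835). With values floored at the 20th percentile the unadjusted p of Sst and Vip was above 0.05, and the Vip difference was -0.49; without wild type muscle array 3 it was -0.70. The congenic and wild type values of Avp and Vip did not overlap (2 of 7, against 11.9% of all probes). All these muscle values lie at or below percentile 68.8 of their arrays, and on the 3 congenic arrays Vip lay at percentile 1.30 to 5.71. The other differences were -0.78 for Crh, 0.57 for Ghrh, 0.19 for Trh and 0.07 for Oxt.

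The strain difference of Avp in hypothalamus minus that in muscle was 2.48 (SE 0.87, 95% interval 0.61 to 4.36), the largest of the 7 such contrasts. The signs were opposite, with 0.81 in hypothalamus and -1.67 in muscle, where Avp lay at or below percentile 67.1. The contrast did not pass over all probes (limma adjusted p = 0.913; 0 of 7 hormones and 0.0 percent of probes called; unadjusted p under 0.05 for 1 of 7 and 1198 of all probes). Without wild type hypothalamus array 1 it was 2.84 (limma adjusted p = 0.563). That of Oxt was then 1.12 (limma unadjusted p = 0.032, adjusted p = 0.727). The other 6 contrasts with all 12 arrays ran from -0.57 for Trh to 1.39 for Crh.

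Receptors of these hormones had a median level of 8.56 to 8.93 on hypothalamus arrays and 8.55 to 9.11 on muscle arrays, close to the median of all probes, and 0 of the 15 measured of 18 passed in either direction in any of the 3 strain fits. In hypothalamus without wild type array 1, 8 were higher and 7 lower with a median difference of 0.13, beside a median of -0.07 over all 13840 genes, of which 44.5% were higher. The vasopressin receptors Avpr1a, Avpr1b and Avpr2 differed by -0.15, -0.51 and 0.13. The thyrotropin-releasing hormone receptors Trhr and Trhr2 differed by -0.34 and 0.83, and the corticotropin-releasing hormone receptors Crhr1 and Crhr2 by 0.33 and 0.19. The somatostatin receptors Sstr1, Sstr2, Sstr3 and Sstr4 differed by 0.69, -0.66, 0.29 and -0.17. Vipr1, Vipr2 and Adcyap1r1, receptors of Vip and its relative PACAP, differed by -0.65, -0.62 and 0.77. Ghrhr, the receptor through which Ghrh acts on pituitary somatotrophs, read 8.88, 8.81 and 8.33 on congenic and 8.80, 7.15 and 7.75 on wild type hypothalamus arrays. Its difference was 1.22 without wild type array 1 (SE 0.47; limma adjusted p = 0.900) and 0.77 with it (limma adjusted p = 0.936). All these Ghrhr values lay below the hypothalamus median of 8.98, and muscle read 7.88 to 8.52. Sstr2 was higher in hypothalamus (10.71 to 11.99) than in muscle (7.61 to 8.77) on every array, as were 6.91% of all probes. Trhr2, Sstr3 and Vipr1 went the other way on every array. They read 7.25 to 9.53, 8.35 to 8.93 and 7.23 to 9.95 in hypothalamus. In muscle they read 10.89 to 11.68, 10.09 to 12.01 and 10.21 to 11.05. The share of all probes with every muscle array above every hypothalamus array was not computed, so these receptors are a description only.

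Genes of precursor processing and the secretory granule, 15 measured of 20, had 5 positive and 10 negative differences without wild type array 1 and a median of -0.45, and 0 passed. With all 6 arrays the split was 7 and 8 and the median -0.01. The extremes on 5 arrays were Ptprn, a granule membrane protein (-1.82; limma adjusted p = 0.900), and Cadps, which primes granule release (-0.86), against Pam, which amidates the C-terminus of peptides (0.38), and Scg2, secretogranin (0.33). Scg2 and Ptprn read 9.34 and 8.24 on wild type array 1, and over all 6 arrays they differed by 2.79 and 1.07. The list's median level was 16.44, 15.79 and 16.99 on congenic arrays 1 to 3 and 15.76, 16.89 and 16.78 on wild type arrays 1 to 3, lowest on congenic arrays 1 and 2 and wild type array 1.

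Related peptides, the binding protein and degrading enzymes, 14 measured of 18, had 9 positive and 5 negative differences on 5 arrays, a median of 0.15 and 0 called. Kiss1 (1.35) and Gal (0.85) were highest, and Trhde, the enzyme that degrades thyrotropin-releasing hormone (-0.82), and Crhbp, the binding protein of Crh (-0.81), were lowest. Over all 6 arrays these were 0.15, 0.16, -0.03 and 0.33. Transcription factors of neuroendocrine development, 16 measured of 20, had 6 positive and 10 negative differences, a median of -0.35 and 0 called. Gsx1, a homeobox factor needed for Ghrh expression in mice, read 9.35, 8.60 and 8.81 on congenic and 11.65, 10.52 and 10.51 on wild type hypothalamus arrays. The groups did not overlap with either set of arrays, as for 9.16% of all probes on 6 arrays and 22.6% on 5. Other listed genes, such as Sstr1, Adcyap1r1 and Pcsk1n, also did not overlap on 6 arrays. The Gsx1 difference was -1.98 over 6 arrays and -1.60 over 5 (limma adjusted p = 0.936 and 0.900). Lhx2 differed by -1.52, Dlx1 by 0.86 and Pou3f2, a factor of Crh, Oxt and Avp neurons, by 0.50 on 5 arrays.

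**Figure D4:**
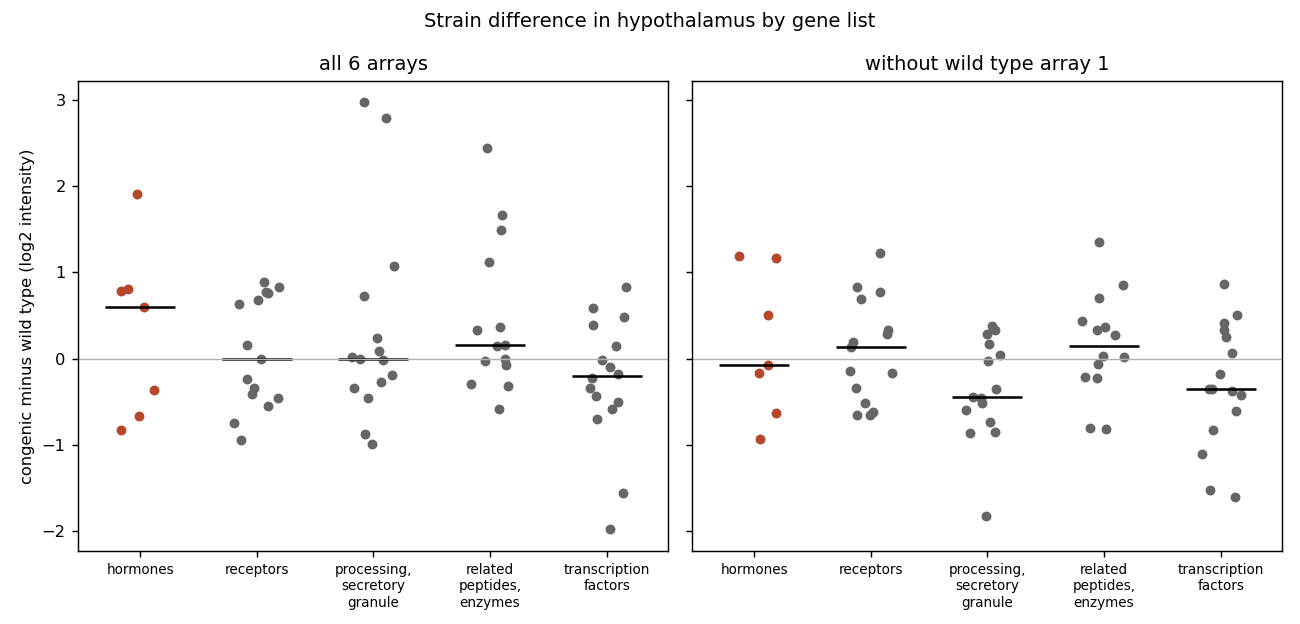
Difference between congenic and wild type hypothalamus (y axis, log2 intensity) for each gene of the hormone group and of 4 fixed lists, with all 6 arrays (left) and without wild type array 1 (right); each point is 1 gene and bars are medians. The median of the processing and granule genes is -0.01 on the left and -0.45 on the right, and that of the receptors is -0.01 and 0.13.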

How the data were processed

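Expression was measured in hypothalamus and skeletal muscle of congenic and wild type mice, 3 arrays per group. Per the labels' protocols, DIG-labelled cRNA was made with a chemiluminescent RT-IVT kit. The authors deposited log2 intensities (base inferred from the range); the software they used and any background step are unstated in those labels. Values were used as deposited. Probes were named from the platform annotation, with symbols updated through gene IDs (14411 with 1 symbol, 247 with several, 18354 unnamed); the brightest probe stood for a gene. Sequences are from RefSeq, GRCm38.p6.

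Strain differences, congenic minus wild type, were tested in each tissue, and the difference between tissues over 12 arrays, with limma 3.58.1 in R 4.3.3 (eBayes with a variance trend), fitted on 33012 probes with p-values adjusted by Benjamini-Hochberg and a threshold of 0.05, and the fit was tested on simulated data. Leave-one-out, a replicate block, array weights, filter, floor, prior and scaling were alternatives. No array gave a detection call, and the number of arrays limits the precision.

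The hormones, gene lists and tests were chosen with earlier results of these data known. All hormones were named; of each of the 4 pathway lists, the 2 highest and 2 lowest differences without wild type hypothalamus array 1 and all receptors; and the 3 genes closest to each hormone. Other genes, marker genes included, were picked after their values were seen.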

Additional observations from a re-analysis of the deposited data

How the results depend on the processing

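None of the 7 hormones was called in hypothalamus, in muscle or in the contrast between tissues under any alternative run, and in hypothalamus and in that contrast limma called 0 probes of any kind under each. Over the alternatives in hypothalamus the difference was 0.49 to 1.28 for Oxt (limma adjusted p-values of 0.410 to 0.988) and 0.32 to 1.43 for Avp. Signs turned for Crh with array weights (-0.30) and without wild type array 1 (-0.17, in a leave-one-out range up to 1.02), for Vip with array weights (0.05), for Trh without wild type array 3 (0.07; -0.93 without wild type array 1 and -1.03 with array weights), and for the contrast of Ghrh without wild type hypothalamus array 1 (-0.06, range up to 2.26). In muscle they turned for Oxt without congenic array 2 (-0.03) or wild type array 3 (-0.13, range up to 0.26) and for Trh without congenic array 1 (-0.08) or 2 (-0.01, range up to 0.67). The cause of these turns was not tested. The 6 probes called in muscle became 1 in a fit of all 12 arrays, 2 without the variance trend, 2 with values floored at the 20th percentile, and 2 to 8 when an array was left out. With array numbers as a replicate block limma called 0 probes in hypothalamus and 6 in muscle. The numbers were not taken as pairs because no label pairs them. Same-numbered arrays of the 2 strains had deviations that correlated at 0.034, -0.129 and 0.138 in hypothalamus and 0.069, 0.015 and 0.063 in muscle. Arrays of different numbers gave -0.16 to 0.14 in hypothalamus and -0.083 to 0.017 in muscle. In muscle the values of arrays 1 and 3 thus lay above these, and the correlations do not decide whether the numbers mark pairs. In muscle the Vip difference was -0.49 with floored values and -1.37 to -0.70 when an array was left out. Vip in muscle was below the filter on dim probes and was not tested there. How far low values lie above background is unknown.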
